A study of Mus musculus with 2 samples.

Results

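The genes described are 10 antiviral restriction factors and effectors that type I interferon induces: Mx1, Mx2, Rsad2, Cmpk2, Samhd1, Isg20, Apobec3, Bst2, Xaf1 and Rtp4. They were chosen with earlier results of these data known, and taken by name from the 22184 genes that have a probe set annotated to them alone. All 10 were found, each with 1 such probe set, and each was above the detection floor on both arrays, a level that 95% of probe sets for odour and pheromone receptors, silent in monocytes, do not exceed. Levels are log2 values from robust multiarray averaging (RMA), so a difference of 1 is 2-fold. RNA came from inflammatory monocytes of the colon lamina propria, sorted as CD11b-positive, Ly6C-high, CD3-negative and Ly6G-negative cells. The WT group was C57BL/6 mice. The other group was Nlrp6-/- mice, labelled C57Bl/6, which lack the NOD-like receptor Nlrp6; the genotype names no cell type to which the loss is limited. Mice of both groups had been given the carcinogen azoxymethane (AOM) at 10 mg/kg. From day 5 they had 5 days of 2% dextran sodium sulfate (DSS), an agent that damages the gut lining, and cells were taken on day 10. No untreated group was analysed here, so both groups carry the acute colitis of this model. The labels do not say how many mice were pooled or whether the groups were littermates. Each genotype was measured on 1 Affymetrix Mouse Gene 2.1 ST array, so differences carry neither an error nor a test and describe these 2 arrays.

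Type I interferon binds a receptor that activates the kinases Jak1 and Tyk2, and the transcription factor complex ISGF3, which contains Stat2 and Irf9, then switches on a large set of genes through a DNA element called the ISRE. Among its targets are restriction factors, proteins that block a step of viral replication inside the cell. Monocytes and macrophages express many of them at a resting level that interferon raises further. Interferon can raise the RNA of these genes in cells that hold no virus.

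Promoter windows from RefSeq (mouse build GRCm38.p6, 250 bases before to 50 after an annotated start) were searched for such elements. There were windows for 7 of the 10 genes, and none for Mx1, Mx2 and Rtp4. The ISRE core was searched on both strands as 2 copies of GAAA in the same direction with any 2 bases between them. On the other strand this reads as 2 copies of TTTC. The GAS element, another sequence of interferon-responsive promoters, was searched as TTC and GAA with any 3 bases between them, which reads the same on both strands. Windows of 3 of the 7 genes held an ISRE core: Rsad2, Bst2 and Apobec3. Of all 27025 genes with a window, 3.99% held one. GAS matches occurred in windows of Samhd1, Isg20 and Bst2, against 9.55% of all genes, and the Bst2 match overlaps an ISRE core. Such a match is a run of letters and was not tested as a binding site. Rsad2 and Cmpk2 are adjacent genes, Bst2 and Apobec3 hold the other ISRE cores, and Samhd1 was the member that was not higher. For these reasons the 5 windows below are shown. They lie at chr12:26456403-26456702 on the minus strand (Rsad2), chr12:26468965-26469264 on the plus strand (Cmpk2), chr8:71537423-71537722 on the minus strand (Bst2), chr15:79892158-79892457 on the plus strand (Apobec3, the first of 2 annotated starts) and chr2:157135047-157135346 on the minus strand (Samhd1). Each is written 5′ to 3′ on the gene's strand, with ISRE cores in capitals.
Rsad2: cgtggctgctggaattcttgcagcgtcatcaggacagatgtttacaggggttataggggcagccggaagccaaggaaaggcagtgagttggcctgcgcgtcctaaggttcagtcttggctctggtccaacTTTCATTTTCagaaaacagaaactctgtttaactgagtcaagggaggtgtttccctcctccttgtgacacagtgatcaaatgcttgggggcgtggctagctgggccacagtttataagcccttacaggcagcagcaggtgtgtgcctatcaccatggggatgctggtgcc
Cmpk2: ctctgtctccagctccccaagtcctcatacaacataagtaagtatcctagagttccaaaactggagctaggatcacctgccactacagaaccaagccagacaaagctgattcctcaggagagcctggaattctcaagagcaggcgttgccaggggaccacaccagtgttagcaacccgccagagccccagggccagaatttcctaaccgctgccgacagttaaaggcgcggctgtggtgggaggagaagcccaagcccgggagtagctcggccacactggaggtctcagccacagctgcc
Bst2: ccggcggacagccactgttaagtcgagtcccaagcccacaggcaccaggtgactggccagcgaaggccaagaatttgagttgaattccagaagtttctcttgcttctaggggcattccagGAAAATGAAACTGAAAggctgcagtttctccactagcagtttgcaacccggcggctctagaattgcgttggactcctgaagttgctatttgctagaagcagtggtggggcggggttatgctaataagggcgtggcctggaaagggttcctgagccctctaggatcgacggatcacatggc
Apobec3: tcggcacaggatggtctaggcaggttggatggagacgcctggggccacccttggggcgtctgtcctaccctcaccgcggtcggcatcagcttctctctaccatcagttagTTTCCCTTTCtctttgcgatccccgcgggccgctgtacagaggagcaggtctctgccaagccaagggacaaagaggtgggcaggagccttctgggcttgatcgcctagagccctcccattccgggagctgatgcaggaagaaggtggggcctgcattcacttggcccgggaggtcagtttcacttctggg
Samhd1: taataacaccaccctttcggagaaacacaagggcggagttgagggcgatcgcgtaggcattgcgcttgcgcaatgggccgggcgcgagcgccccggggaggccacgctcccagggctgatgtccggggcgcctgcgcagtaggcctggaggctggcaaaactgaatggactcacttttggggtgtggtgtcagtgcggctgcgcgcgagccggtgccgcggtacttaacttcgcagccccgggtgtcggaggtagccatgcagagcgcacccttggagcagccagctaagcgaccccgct

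The capitals in Rsad2 cover positions -120 to -111 and those in Apobec3 positions -140 to -131, where 0 is the annotated start. Bst2 holds 2 overlapping cores, from -130 to -121 and from -124 to -115, and its GAS match runs from -136 to -128. The windows of Cmpk2 and Xaf1 held neither motif.

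**Figure D1:**
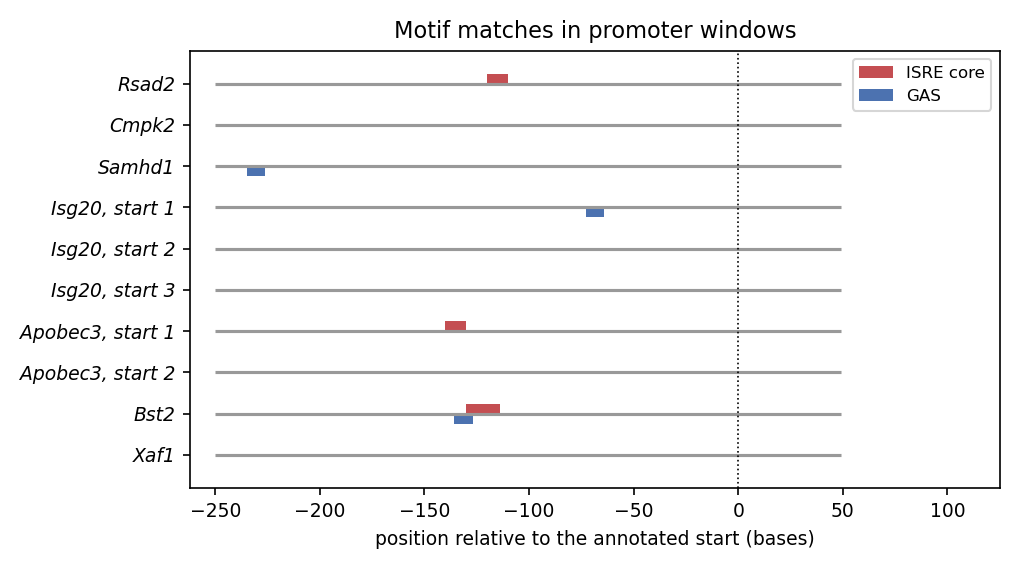
Matches of the ISRE core (red) and of GAS (blue) in the promoter windows of 7 genes, with the horizontal axis in bases from the annotated start at 0. Red marks appear in Rsad2, in the first Apobec3 window and in Bst2, all between -140 and -111. Blue marks appear in Samhd1, in the first Isg20 window and in Bst2.

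As a group the 10 genes were higher in the Nlrp6-/- monocytes. Of them, 9 had a higher level than in WT, 8 by at least 1.5-fold and 5 by at least 2-fold, and 1, Samhd1, was slightly lower. None was lower by 1.5-fold or more. Over all 9537 genes above the floor on at least 1 array, 51.6% were higher by any amount, 6.21% by at least 1.5-fold and 1.61% by at least 2-fold, while 3.05% were at least 1.5-fold lower and 0.325% at least 2-fold lower. The median difference of the 10 genes, Nlrp6-/- minus WT, was 1.10 on the log2 scale, a 2.14-fold difference, against a median of 0.01 for all genes. Because the 10 genes were chosen with earlier results known, these comparisons with all genes describe them and are no independent test. The 5 genes past 2-fold were Cmpk2, Mx2, Mx1, Rsad2 and Rtp4. The member nearest inside the limit was Rtp4 at 2.30-fold, and the nearest outside it was Xaf1 at 1.996-fold, a gap of 0.21 on the log2 scale. In RNA from a sorted population, more RNA per cell and more cells that express the gene cannot be told apart.

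**Figure D2:**
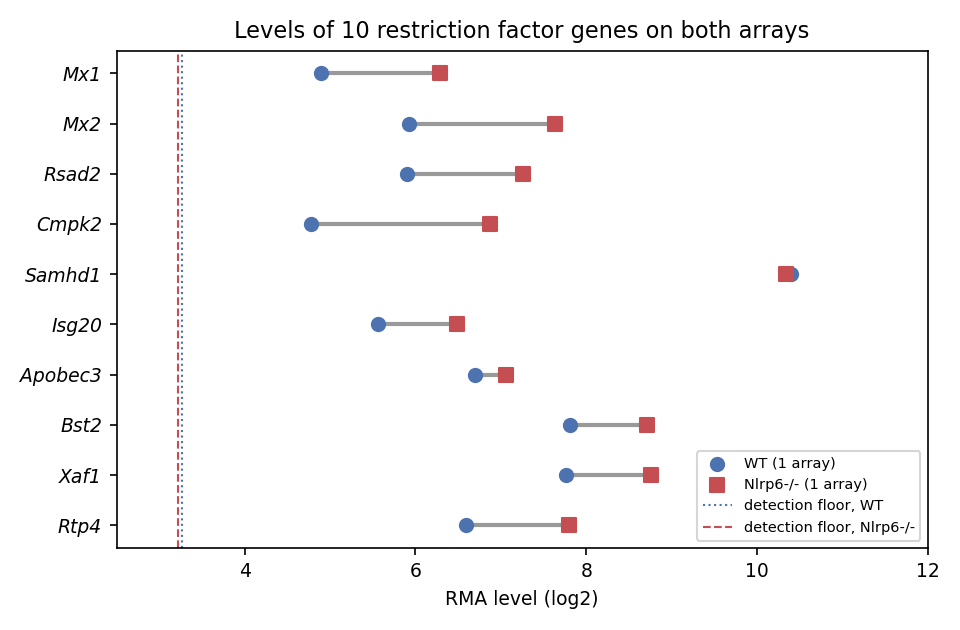
RMA level (log2, horizontal axis) of each of the 10 genes in WT (blue circles) and Nlrp6-/- (red squares), 1 array each, with the detection floors at 3.26 and 3.22 as vertical lines. Every square except that of Samhd1 lies to the right of its circle, and Cmpk2 has the longest gap, from 4.78 to 6.88.

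The Mx genes encode dynamin-like GTPases that assemble into rings on viral nucleoproteins; Mx1 acts in the nucleus against influenza viruses and Mx2 in the cytoplasm against vesicular stomatitis virus. Mx1 had a log2 level of 4.90 on the WT array and 6.28 on the Nlrp6-/- array, higher by 1.39 or 2.62-fold. Mx2 had levels of 5.93 and 7.63, higher by 1.71 or 3.26-fold. Both were brighter on the Nlrp6-/- array, and their differences ranked 53 and 25 among the 9537 genes. RefSeq lists both as transcribed pseudogenes in the C57BL/6J assembly. Most inbred strains are known to carry defective Mx alleles, so the RNA gives no measure of Mx protein. The genes are close paralogs, and whether their probes share signal was not tested.

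The next 3 members act on nucleotides. Rsad2 (viperin) is a radical-SAM enzyme that turns CTP into a chain-terminating analogue, and Cmpk2 is a mitochondrial kinase of UMP, CMP and their deoxy forms. The genes are adjacent on chromosome 12, their promoter windows shown above lie on opposite strands, and they are often induced together. Rsad2 levels were 5.91 (WT) and 7.26 (Nlrp6-/-), so it was higher by 1.35 or 2.55-fold. Cmpk2 levels were 4.78 and 6.88, a gap of 2.10 or 4.28-fold, which was the largest of the 10 genes and ranked 10 among all genes. The gap between Cmpk2 and the next member, Mx2, was 0.39. Samhd1, a triphosphohydrolase that depletes the deoxynucleotides retroviruses need, stood at 10.40 on the WT array and 10.34 on the other, a difference of -0.06. Its probe set had the highest signal of the list on both arrays, although signals of different probe sets are not comparable as amounts of RNA. Thus 2 of the 3 genes in this role were higher in Nlrp6-/- and Samhd1 was level.

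Isg20 and Apobec3 act on viral nucleic acids. Isg20 is an exonuclease that degrades single-stranded RNA from its 3′ end, and it measured 5.56 in WT against 6.49 in Nlrp6-/-, higher by 0.93 or 1.91-fold. Apobec3, the only APOBEC3-type cytidine deaminase of the mouse, restricts retroviruses and is packed into their virions. It measured 6.69 in WT against 7.06 in Nlrp6-/-, higher by 0.37 or 1.29-fold. The Isg20 difference ranked 188 among all genes, and that of Apobec3 ranked 1362, within the highest 14.3%. Apobec3 and Samhd1 were the 2 members under 1.5-fold.

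Bst2 (tetherin) is a membrane protein that holds budding virions to the cell surface. Its level was 7.81 on the WT array and 8.71 on the Nlrp6-/- array, higher by 0.90 or 1.86-fold. Outside interferon responses Bst2 marks plasmacytoid dendritic cells and plasma cells, so their markers are given beside it. Of 13 plasmacytoid dendritic markers on the array, 7 were above a floor, 4 of them higher and 3 lower, with a median difference of 0.17. Klk1 and Ly6d (5.69 in WT, 6.30 in Nlrp6-/-) were the 2 at least 1.5-fold higher. The defining marker Siglech was below both floors, at 2.77 in WT and 2.92 in Nlrp6-/-, as were Spib, Pacsin1, Klra17, Cd209d and Smim5. Klk1, a kallikrein that epithelium makes too, was at 3.73 and 6.65 and carried most of the list's higher summed linear level. That sum was 1.48 times that of WT with Klk1 and 1.10 times without it, a choice made after its value was seen. Of 9 measured B and plasma cell markers, 8 were higher, with a median of 0.43 and a ratio of summed levels of 1.49. Mzb1, a plasma cell chaperone, was at 5.22 and 6.84, and the antibody joining chain Jchain at 9.22 and 10.09. What part RNA of plasmacytoid dendritic cells or plasma cells had in the Bst2 difference was not tested.

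Xaf1 binds the apoptosis inhibitor XIAP and favours the death of infected cells. Its levels were 7.76 in WT and 8.76 in the Nlrp6-/- sample, 0.997 apart on the log2 scale. Rtp4, a receptor chaperone that also binds viral RNA and limits flaviviruses, read 6.59 in WT against 7.80 in Nlrp6-/-, 1.20 apart. Both were higher in Nlrp6-/-, and Rtp4 ranked 80 and Xaf1 155 among all genes.

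In order of difference the genes ran Cmpk2, Mx2, Mx1, Rsad2, Rtp4, Xaf1, Isg20, Bst2, Apobec3, Samhd1. With 1 array each, the spread between mice was not measured, and technical error shows only through other probe sets. The 1395 odour and pheromone receptor genes differed between the arrays with an SD of 0.19 and by 0.94 at most. Of the 10 genes, 6 exceeded that size and Isg20, Bst2, Apobec3 and Samhd1 did not. Most of these receptor genes lie below the floors, unlike the members. Over all genes above a floor the SD was 0.42 at mean levels of 4 to 6 and of 6 to 8, and 0.39 at 8 to 10. Every member but Samhd1 lies in these ranges, and their SD also holds any real differences. Where a gene had more than 1 probe set above both floors (422 genes), the differences these gave lay a median of 0.31 apart, with a 90th percentile of 0.79. The differences of 8 of the 10 genes were larger than 0.79, but each rests on 1 probe set and has no check of this kind. Every step between neighbours in the order was smaller than 0.79, the widest being 0.53 between Bst2 and Apobec3, so no neighbours are separated beyond this disagreement.

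**Figure D3:**
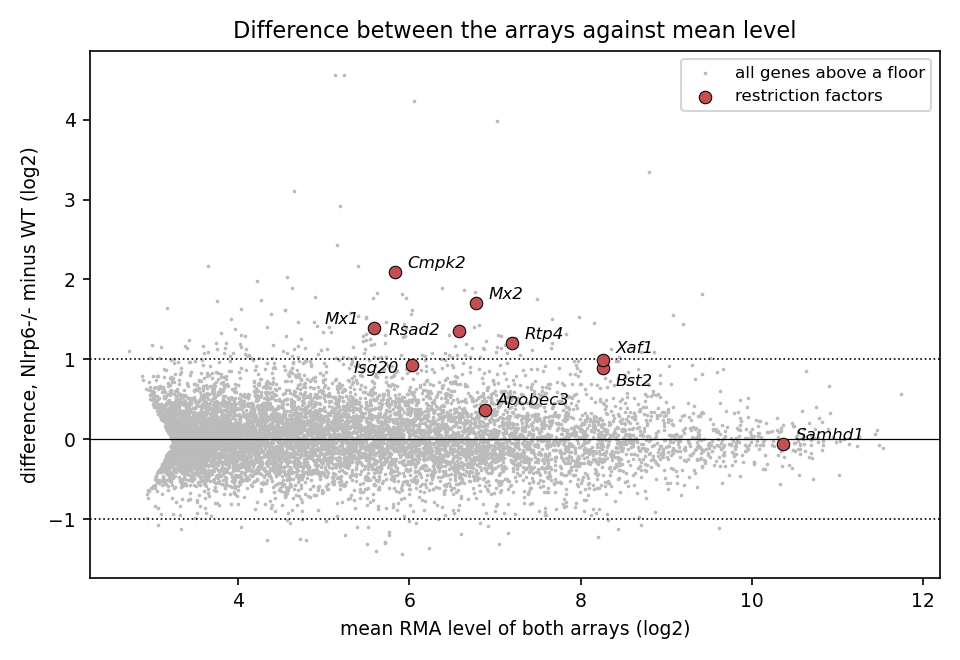
Difference between the arrays (log2, Nlrp6-/- minus WT) against the mean RMA level of both, for all 9537 genes above a floor (grey) and the 10 restriction factors (red); dotted lines mark 2-fold. Cmpk2, Mx2, Mx1, Rsad2 and Rtp4 lie above the upper line, Xaf1 on it, and Samhd1 lies at the bright end near 0.

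Few probe sets of high signal differed, whatever their gene: of the 109 genes with a mean level of at least 10, Samhd1 among them, 1.83% were at least 1.5-fold higher. Of the 2202 genes with a mean level from 6 to 8, which held Mx2, Rsad2, Isg20, Apobec3 and Rtp4, 7.77% were at least 1.5-fold higher, and so were 4 of those 5 members. What part signal strength has in the Samhd1 value was not tested.

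The wider pathway was described through lists that hold none of the 10 genes, chosen with earlier results of these data known. Of 44 other interferon-stimulated genes above a floor, 42 were higher in Nlrp6-/-, 29 by at least 1.5-fold and 14 by at least 2-fold, with a median difference of 0.77. The 4 with the largest differences were the helicase Ddx60 (1.89), the ISG15 protease Usp18 (1.84), the mitochondrial RNA exonuclease Pnpt1 (1.76) and Ifit1 (1.75), which binds viral RNA caps. None of the 44 was 1.5-fold lower. Of 24 other restriction factors above a floor, 20 were higher but only 6 by at least 1.5-fold and 3 by at least 2-fold, with a median of 0.23. Ddx60, which is also in the previous list, led them, followed by the RNA-activated kinase Eif2ak2 (1.31), the helicase Mov10 (1.02) and Trim12c (0.98), a relative of the retrovirus factor TRIM5. These lists were not tested against each other or against the 10 genes.

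The receptors and kinases of the pathway differed little, while 2 of 6 measured genes of the receptor-to-ISGF3 chain were at least 1.5-fold higher. The receptor chains Ifnar1 and Ifnar2 were at 0.20 and -0.09 on the difference scale, and the kinases Jak1 and Tyk2 at -0.10 and -0.03. The ISGF3 subunits Stat2 and Irf9, which interferon itself induces, were higher by 0.71 and 0.70, from 7.37 to 8.08 and from 6.18 to 6.89. Of 11 genes listed as negative regulators, 6 were higher, with a median of 0.06. Usp18 and the ubiquitin-like modifier Isg15 (0.69) were the 2 past 1.5-fold. The phosphatase Ptpn1 (-0.44) and the SUMO ligase Pias3 (-0.40) were the next in size. Stat2, Irf9, Usp18 and Isg15 are also in the list of other interferon-stimulated genes and were already counted there.

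Interferon ligand genes were mostly undetected or level. Of 18 on the array, 11 were below both floors, including Ifnb1, the first interferon most cells make, at 2.90 in WT and 2.70 in Nlrp6-/-, and Ifng at 2.83 and 2.57. The other 9 below both floors were Ifna2, Ifna9, Ifna11, Ifna13, Ifna15, Ifna16, Ifnab, Ifne and Ifnk. Of the 7 above a floor, none was 1.5-fold apart in either direction and the median difference was -0.13. Ifna4 was at 5.52 in WT and 5.98 in Nlrp6-/-, Ifna1 at 5.64 and 5.51, and Ifnl2 at 5.22 and 5.17. Ifna12 was at 3.94 and 3.79, Ifna14 at 4.05 and 3.50, Ifna6 at 3.12 and 3.24, and Ifnl3 at 3.43 and 3.22. The interferon alpha genes are near-identical copies, so signal may be shared among their probe sets. The array gives RNA in the sorted cells alone and says nothing of interferon made elsewhere.

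**Figure D4:**
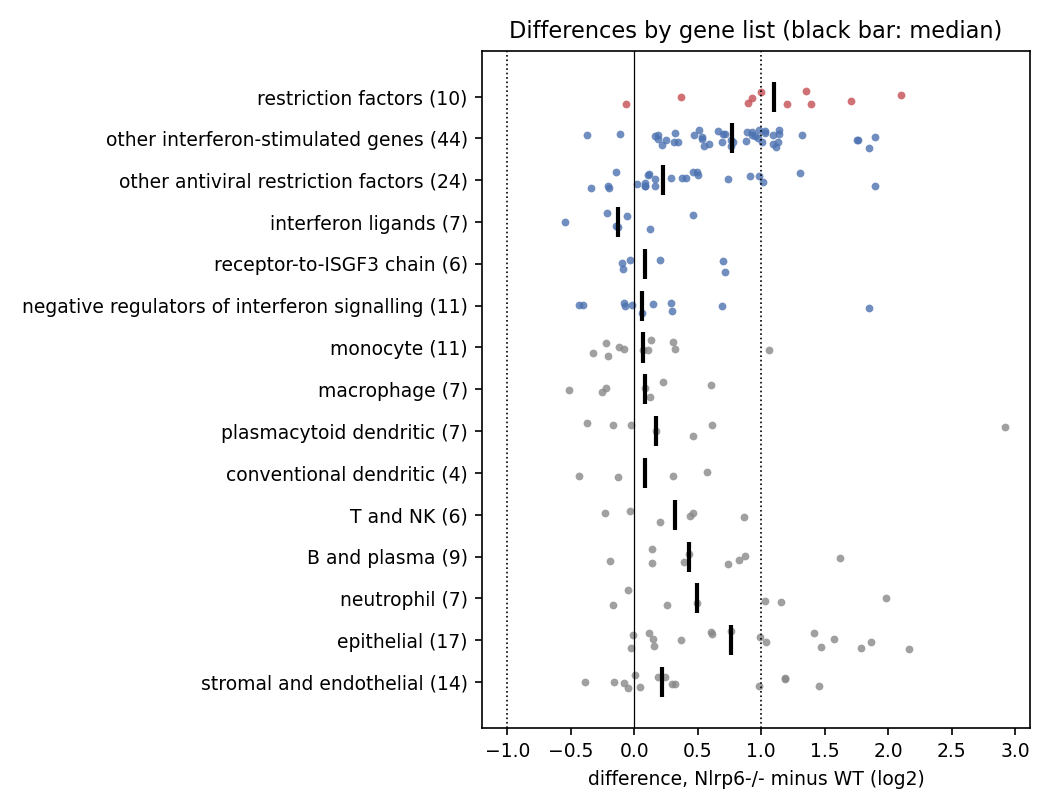
Difference between the arrays (log2, Nlrp6-/- minus WT, horizontal axis) of every gene above a floor, by list, with the number of genes in brackets and the median as a black bar; dotted lines mark 2-fold. The chosen restriction factors have a median of 1.10, the other interferon-stimulated genes 0.77 and the other antiviral restriction factors 0.23. The ligand, receptor-to-ISGF3 and regulator lists have medians from -0.13 to 0.09. Among the cell markers epithelial genes have the highest median, 0.76.

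The probe set of Nlrp6 did not reach either floor (2.32 in WT, 2.67 in Nlrp6-/-) and so cannot check the genotype. Monocyte markers were present: all 11 on the array were above both floors, among them Ly6c2 at 9.06 and 9.36 and Cd14 at 10.78 and 10.56. Their median difference was 0.07, with 6 higher and 5 lower. F13a1, at 5.38 in WT and 6.44 in Nlrp6-/-, was the only monocyte marker at least 2-fold higher. Markers of other cells were also present and several lists were higher in Nlrp6-/-, beside every result above. The summed linear level of 20 epithelial markers was 2.14 times as high as in WT, with 15 of 17 measured members higher; that of 14 stromal and endothelial markers was 1.76 times as high, with 10 of 14 higher, and that of 12 neutrophil markers 1.27 times, with 5 of 7 higher and 3 at least 2-fold higher. The bright Csf3r (-0.05) and Mmp8 (-0.17) were the 2 measured neutrophil markers that were lower. Without them, a choice made after their values were seen, the neutrophil sum was 1.97 times as high. The brightest of those left were S100a8 (6.44 in WT, 7.60 in Nlrp6-/-) and S100a9 (5.99 and 7.01). Camp, Ltf, Ngp, Mpo and Elane were below both floors. The ratio of summed levels was 1.12 for macrophages, 0.93 for conventional dendritic cells and 0.96 for monocytes. It was 1.04 for T and NK cells, and 1.28 without the bright Il7r (-0.03), also left out after seeing its values. The median differences were 0.76 for epithelial, 0.21 for stromal, 0.50 for neutrophil, 0.32 for T and NK, 0.08 for macrophage and 0.09 for conventional dendritic markers. The neutrophil median was the value of Cxcr2 and the epithelial median that of Krt19. Both genes were below the floor in WT, and their differences bounded by that floor were 0.30 and 0.71. Epithelial cells also express interferon-stimulated genes, and the part of other cells' RNA in the differences of the 10 genes was not tested.

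By distance between the 2 levels, the genes most like Cmpk2 among 8560 others above both floors were Igkv6-14, an antibody light chain segment (5.00 in WT and 6.82 in Nlrp6-/-, distance 0.23), Ifi213, an interferon-induced gene of the p200 family (5.08 and 6.85, distance 0.30), and Ighg3, an antibody heavy chain constant gene (4.70 and 6.54, distance 0.35). With 2 arrays such a likeness rests on 2 values, and genes of quite different cells share it.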

How the data were processed

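The genotype label set the group of each sample. Per the labels' protocols, the authors used RMA in the oligo package (R 2.15.1) on strip arrays scanned with the Gene Atlas system (software 1.0.4.267). The deposited table holds log2 levels of 41345 probe sets; the column medians were 2.87 (WT) and 2.84 (Nlrp6-/-). RMA equalises the arrays' distributions, so a shift of all transcripts cannot be seen.

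Genes were named from the platform annotation: 23525 probe sets had 1 symbol, 1810 several and 16010 none, and those with several or none were not used. The probe set with the highest mean stood for a gene. All 10 members matched RefSeq by gene ID. The detection floor was the 95th percentile of 1406 olfactory and vomeronasal receptor probe sets, which came to 3.26 (WT) and 3.22 (Nlrp6-/-). Where only 1 array was above its floor, fold counts and ranks used a bound, the other level minus the higher of the floor and its own level. Medians, SDs and counts of genes higher or lower by any amount used the plain difference, without the bound. Named genes were the members, all ligand and receptor-to-ISGF3 genes, the 4 largest differences of each other pathway list, the 3 genes nearest Cmpk2, the markers and Nlrp6. Members and lists were chosen with earlier results of these data known. Scripts (Python 3.11.15, pandas 2.3.3, statsmodels 0.14.6) were tested on simulated data. Alternatives were other centring, normalization, floors, probe set rule and folds; genes above both floors only was added after the data were seen. The number of arrays limits the precision.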

Additional observations from a re-analysis of the deposited data

How the results depend on the processing

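Only 2 of the alternatives, renewed quantile normalization and removal of a loess fit against level, could change the members unequally; their 20 values for single members moved by at most 0.03. Centring shifted every gene by 0.01. The 4 floor and probe set rules, 1 of them chosen after seeing the data, could not change a member's value, since each has 1 probe set above both floors. No call reversed. The median difference of the 10 genes ranged from 1.09 to 1.11, and that of the other interferon-stimulated genes from 0.75 to 0.78. The count of members at least 2-fold higher was 5, or 6 once a loess fit against level was removed, which took Xaf1 to a difference of 1.02. With other folds it was 8 at 1.5-fold and 2 at 3-fold. The other interferon-stimulated genes then numbered 29 and 4, and all genes 592 and 29, against 14 and 154 at 2-fold. With a stricter floor, the 99th percentile of the receptor probe sets, 93 genes were 2-fold higher, because 4954 genes entered instead of 9537. These settings share the same 2 arrays, so their agreement says nothing about the spread between mice. No paired analysis was possible because each group has 1 array.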
